A study of Mus musculus with 6 samples.

Results

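The genes described here encode the MHC class II molecules and the proteins that load them with antigen. They were taken as every probe set that the platform's probe-to-gene table assigns to exactly 1 of 10 symbols: H2-Aa, H2-Ab1, H2-Eb1, H2-DMa, H2-DMb1, H2-DMb2, H2-Oa, H2-Ob, Cd74 and Ciita. This gave 19 of the 45037 probe sets tested, for 9 of the 10 genes, beside 18193 genes in the whole table. H2-DMb1 had no probe set of its own, and 3 further probe sets that a member shares with another gene are given apart. Signals came from 3 HSPC_Med12 KO and 3 HSPC_control arrays. HSPC stands for haematopoietic stem and progenitor cell, here a bone marrow cell sorted for lack of lineage markers and for c-Kit and Sca1. The knockout cells came from Med12Flox;MxCre mice, in which Cre is driven by the interferon-inducible Mx promoter and so acts in many cell types besides HSPCs. The genotype of the controls is not given in the labels, nor is age. Both groups have the background strain B6/129, and in both the cells were taken 4 days after pI:pC, the double-stranded RNA that switches on Mx-Cre through interferon. pI:pC was thus given to the control mice too. The labels do not tie arrays to animals, and the p-values below therefore cover the spread among arrays, which may be technical.

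MHC class II molecules carry peptides from the endosome to the surface of a cell, where CD4+ T cells read them. An alpha and a beta chain are assembled in the endoplasmic reticulum around the invariant chain, CD74, which blocks the peptide groove. Proteases then cut CD74 down to a short remnant, the DM heterodimer exchanges that remnant for peptide, and the DO heterodimer holds DM back. Transcription of these genes depends on CIITA, a coactivator recruited by RFX, CREB and NF-Y factors on a shared X box and Y box upstream of the start sites. B cells, dendritic cells and macrophages are the best known carriers of class II, and its genes are also transcribed in mouse stem and progenitor cells.

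Of the 10 genes, 8 lie on chromosome 17 in the RefSeq table of assembly GRCm38.p6 and Cd74 and Ciita lie on other chromosomes. The RefSeq promoter table of the same build held windows for 7 of the 8 genes on chromosome 17. Promoter windows of Cd74 and Ciita are not described here. The stretches from 150 bases upstream to the base before the start site are shown for the gene that passed the test, H2-Ob, for its partner chain, and for the DM beta chains and classical chains with which it is compared below. They are those of the reference genome, not of the animals studied. Capitals mark the Y box core, which is ATTGG on one strand and reads as CCAAT on the other, and an X box with the letters AACNNATGA.
H2-Ob, chr17:34238755-34238904, plus strand: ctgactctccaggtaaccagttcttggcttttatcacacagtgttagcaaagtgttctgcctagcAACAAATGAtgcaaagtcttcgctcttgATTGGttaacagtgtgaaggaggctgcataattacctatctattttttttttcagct
H2-Oa, chr17:34092229-34092378, plus strand: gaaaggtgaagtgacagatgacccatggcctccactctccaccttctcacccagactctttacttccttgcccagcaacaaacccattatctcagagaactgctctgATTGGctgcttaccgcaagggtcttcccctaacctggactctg
H2-DMb2, chr17:34145099-34145248, plus strand: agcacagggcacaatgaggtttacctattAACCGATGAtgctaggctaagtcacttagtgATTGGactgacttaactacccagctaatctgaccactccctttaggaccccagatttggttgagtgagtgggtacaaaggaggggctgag
H2-DMb1, chr17:34153041-34153190, plus strand: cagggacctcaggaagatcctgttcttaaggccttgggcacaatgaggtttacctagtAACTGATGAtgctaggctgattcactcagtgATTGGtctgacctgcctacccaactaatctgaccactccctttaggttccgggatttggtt
H2-Aa, chr17:34287824-34287973, minus strand: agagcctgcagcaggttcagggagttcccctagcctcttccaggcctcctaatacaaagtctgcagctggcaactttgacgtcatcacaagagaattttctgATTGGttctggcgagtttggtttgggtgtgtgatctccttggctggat
H2-Eb1, chr17:34305717-34305866, plus strand: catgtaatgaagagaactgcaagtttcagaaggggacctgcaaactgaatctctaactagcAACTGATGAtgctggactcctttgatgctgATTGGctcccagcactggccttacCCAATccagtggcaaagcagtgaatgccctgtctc

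Both motifs were searched on both strands of the whole 300-base windows, and the X box letters were written after these members' windows had been read. The Y box core was present in 37.4% of the 32851 windows in the table, the X box in 2.85% and both in 1.35%. H2-Ob, H2-DMb2, H2-DMb1 and H2-Eb1 held both, with 19, 22, 22 and 21 bases between the X box and the next Y box core. H2-Oa and H2-Aa held the Y box core without a match to this X box. The H2-DMa windows, which are 2, held no X box match, and 1 of them held a Y box core. Both lie inside the RefSeq span of H2-DMa (34119693 to 34139101), and the rest of that span was not searched. A match describes letters in these windows and says nothing of binding.

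Values below are the deposited linear signals, and differences are of log2(signal + 16), Med12 KO minus control, which understates the change of dim probe sets. A probe set was called where its adjusted p was under 0.05, from limma's moderated test with Benjamini-Hochberg adjustment over all 45037 probe sets. Of all probe sets 0.762% were called, 0.542% as lower and 0.22% as higher in knockouts. The count was 343, with 28.9% of calls higher, or 62.2% after median centring and 43.0% after quantile normalization. Median signal per array ran from 16.5 to 21.3 in knockouts and from 26.7 to 26.9 in controls, and the median difference of all probe sets, -0.07, became 0.20 once arrays were centred on their medians. The number of arrays limits the precision. Med12, the deleted gene, had signals of 89.1, 100.4 and 86.4 in knockouts and 278.6, 837.4 and 441.6 in controls. Its difference of -2.17 did not pass (adjusted p = 0.0796, limma).

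H2-Ob was the 1 member probe set that passed the test, and it was lower in Med12 knockouts. The members are described below by role, and no test compared the roles with each other. Of the 8 probe sets for Cd74, DM and DO chains, 8 were lower in knockouts, with differences of -2.92 to -0.27 and a median of -1.14. Several of these read the same gene, H2-DMa or H2-DMb2. Of all 45037 probe sets, 27558 were lower in knockouts. Of the 8 probe sets for H2-Aa, H2-Ab1 and H2-Eb1, 6 were higher and 2 were lower, with differences of -0.04 to 0.59 and a median of 0.19. Over all 19 member probe sets 1 fell, 0 rose and 18 did not pass, and 5 had an unadjusted p under 0.05, against 15.7% of all probe sets. The median member difference was -0.17, beside -0.07 for all probe sets, and it was 0.11 after median centring, beside 0.20. It moved with single arrays, to -0.32 without knockout replicate 1, -0.07 without knockout replicate 2 (beside -0.09 for all probe sets), -0.11 without knockout replicate 3 and -0.30 without control replicate 1. The 3 knockout values lay below the 3 control values for 4 of the 19 and above them for 0. Over all probe sets 20.9% had groups apart in either direction, and 13.3% had all knockouts below. These arrays read whole sorted populations, so fewer cells of a type and less RNA per cell cannot be told apart.

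**Figure D1:**
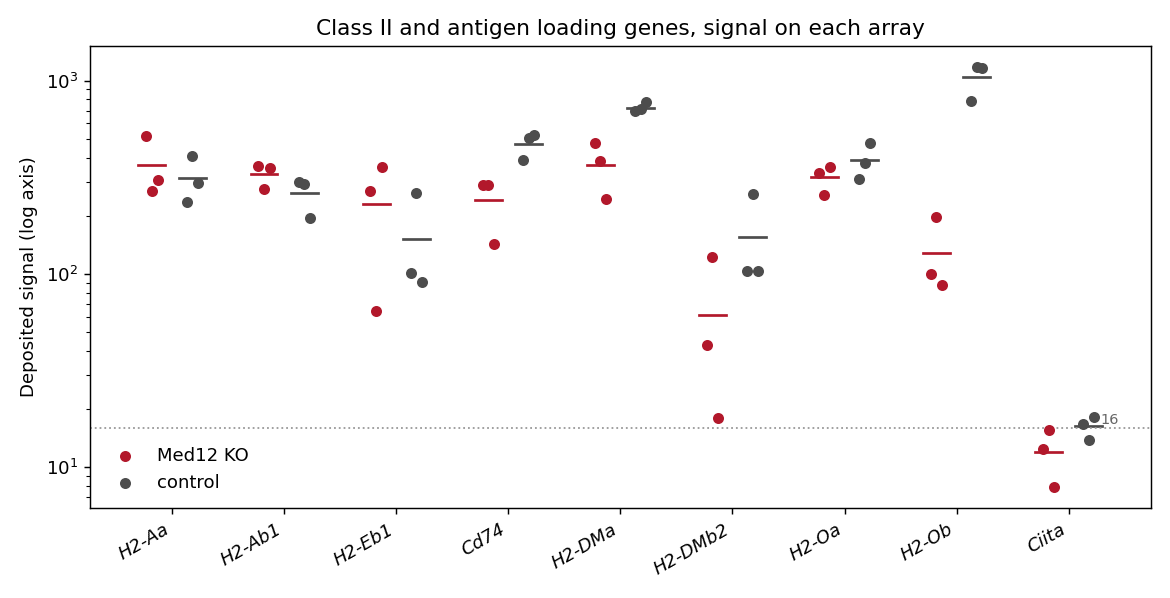
Deposited signal (log axis) of 9 class II and antigen loading genes, each read by its brightest probe set, on 3 Med12 KO arrays (red, left) and 3 control arrays (grey, right), with horizontal bars at the group means. Knockout and control points are apart for Cd74, H2-DMa and H2-Ob and overlap for the other genes; heights of different genes cannot be compared because each rests on its own probes.

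H2-Ob, the beta chain of DO, was the member that fell. Its probe set read 100, 197.9 and 87.4 in Med12 knockouts, against 782.7, 1176.8 and 1158.0 in controls. The brightest knockout array was well below the dimmest control array. The mean was 128 ± 60.5 in knockouts and 1039 ± 222 in controls (SD, n = 3 each), so the knockout mean was 12.4% of the control mean. The log2 difference was -2.92 (SE 0.33; limma adjusted p = 0.0339). It lay between -3.24 and -2.54 over 17 alternative settings and passed in 8 of them. The call was lost whichever array was left out, with adjusted p = 0.0887 to 0.118. A second H2-Ob probe set, shared with the predicted gene Gm20506, read 48.0, 73.7 and 28.1 in knockouts and 158.7, 167.3 and 229.9 in controls. Its groups were also apart, at a difference of -1.65 that did not pass (adjusted p = 0.0808).

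H2-Oa, the alpha chain that pairs with H2-Ob, did not pass. It read 334.3, 257.0 and 355.6 in knockouts and 308.0, 376.6 and 477.8 in controls. The groups overlapped. The difference was -0.27 (SE 0.21; adjusted p = 0.604), with a 95% interval of -0.79 to 0.24. After median centring the difference was -0.00012. The log2 value of H2-Oa was subtracted from that of H2-Ob on the same array, which removes any scaling of whole arrays. The subtraction gave -1.59, -0.35 and -1.85 in knockouts and 1.30, 1.60 and 1.25 in controls, a difference of -2.65, which describes a pair picked with its values known.

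H2-DMa, the alpha chain of the DM peptide editor, was lower in knockouts without passing. Its brighter probe set read 477.4, 383.2 and 242.6 in knockouts and 693.5, 711.5 and 771.3 in controls. All knockout values were below all control values, and the knockout mean was 50.7% of the control mean. The difference was -1.0 (SE 0.25; adjusted p = 0.146). The other probe set read 143.1, 107.6 and 97.4 in knockouts and 184.6, 241.3 and 258.7 in controls. It gave nearly the same difference, -0.89 (adjusted p = 0.116), and again the groups were apart.

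The DM beta chain is encoded by the neighbouring genes H2-DMb1 and H2-DMb2. The 3 probe sets of H2-DMb2 alone had differences of -1.27, -1.75 and -1.76, and none passed (adjusted p = 0.260 to 0.379). The brightest of them read 42.9, 122.8 and 18 in knockouts and 103.5, 259.5 and 103.3 in controls. Knockout replicate 2 was above 2 of the control arrays, so the groups overlapped. Another read 54.9, 28.5 and 5.8 in knockouts and 225.1, 149.6 and 49.0 in controls. The controls themselves differed widely here, with control replicate 3 below knockout replicate 1. The remaining probe set has the same source sequence in the platform table and read much the same on each array. The 2 probe sets shared by H2-DMb1 and H2-DMb2 had smaller differences of -0.45 and -0.20 (adjusted p = 0.569 and 0.709), and the second turned to 0.08 after median centring. One read 81.4, 50.8 and 57.7 in knockouts and 52.1, 122.6 and 112.6 in controls. The other read 88.3, 105.0 and 60.8 in knockouts and 98.0, 109.0 and 86.7 in controls. These arrays give no value for H2-DMb1 apart from its neighbour.

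Cd74, the invariant chain, read 288.0, 290.0 and 142.8 in knockouts, against 387.0, 505.2 and 521.9 in controls. The groups were apart. Its mean was 240 ± 84.4 in knockouts and 471 ± 73.5 in controls (SD, n = 3 each), a knockout mean of 51.0% of the control mean. The difference was -0.98 (SE 0.30) with a 95% interval of -1.71 to -0.25, and it did not pass (adjusted p = 0.204). Among 7864 genes with a mean signal of 100 or more, those nearest to Cd74 across the 6 arrays, by the root mean square distance of log2 values centred on each gene's own mean, were Dhdh (0.097), Camk2a (0.10), Usp22 (0.11), Aff3 (0.13) and Adgrg1 (0.13). The distance spans both groups, so their negative differences, from -1.01 to -0.80, follow from how the 5 were picked. None passed.

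**Figure D2:**
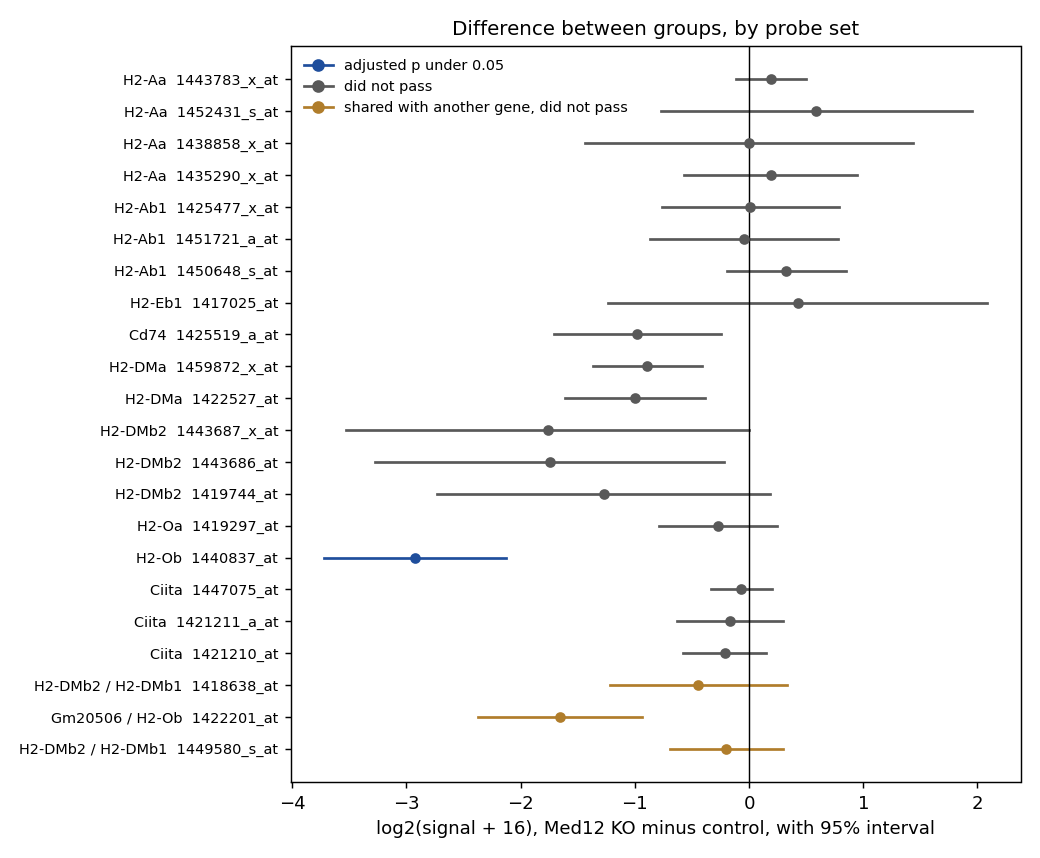
Difference of log2(signal + 16), Med12 KO minus control, for the 19 member probe sets and the 3 shared ones, as points with 95% intervals from limma's fit. The H2-Ob probe set at -2.92 (blue) passed the threshold, the alpha and beta chain probe sets lie around 0, and the DM and Cd74 probe sets lie below 0.

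H2-Aa, the alpha chain of the classical molecule I-A, was read by 4 probe sets. The brightest read 519.8, 268.5 and 306.6 in knockouts and 235.1, 408.0 and 295.1 in controls. Knockout replicate 1 was the highest array and the groups overlapped. The difference was 0.19 (adjusted p = 0.835), with a 95% interval of -0.57 to 0.95. The next by signal read 379.7, 67.4 and 136.6 in knockouts and 105.6, 203.2 and 173.7 in controls, a difference of -0.0019 that turned positive under several settings. The third read 238.2, 118.7 and 104.9 in knockouts and 35.3, 186.4 and 100.9 in controls, a difference of 0.59 that was 0.062 without control replicate 1, 0.26 without knockout replicate 1 and 1.05 without control replicate 2. Knockout replicate 1 was the highest of the 6 arrays on these 3 probe sets. The fourth, at 5.0 or less on every array, gave no usable level. The genes nearest to H2-Aa by the distance used for Cd74 were Clnk (0.059), the interferon-signalling factor Irf9 (0.095), Cebpg (0.11), Ccdc117 (0.12) and Phf12 (0.13). None passed, and their small differences likewise follow from how they were picked.

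H2-Ab1, the beta chain of I-A, had differences of 0.33, 0.01 and -0.04 on its 3 probe sets (adjusted p = 0.529, 0.994 and 0.972). The brightest read 363.1, 273.5 and 352.2 in knockouts and 297.3, 293.3 and 195.0 in controls. The next read 110.1, 101.6 and 94.9 in knockouts and 56.2, 126.7 and 159.2 in controls. The knockout arrays lay inside the range of the controls on that probe set, and the sign of its difference turned to 0.23 after median centring. H2-Eb1, the beta chain of the second classical molecule, I-E, read 269.4, 63.9 and 357.6 in knockouts and 101.2, 263.5 and 91.0 in controls. Knockout arrays were the lowest and the highest of the 6, and the controls lay between them. The difference of 0.43 (adjusted p = 0.830) had a 95% interval of -1.23 to 2.09, which holds changes of either sign. The I-E alpha chain gene, H2-Ea, is annotated as a transcribed pseudogene in the RefSeq table, and its brightest probe set read 1.5, 6.4 and 0.9 in knockouts and 15, 12 and 11.8 in controls, too dim to give a level.

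Ciita, the transactivator that class II transcription depends on, was near the bottom of the scale in both groups. Its brightest probe set read 12.4, 15.5 and 7.9 in knockouts and 16.7, 13.9 and 18.1 in controls, and the other 2 stayed at 12 or less on every array. The differences of -0.07 to -0.21 did not pass (adjusted p = 0.564 to 0.836), and all 3 turned positive after median centring (0.06 to 0.21). The 95% interval of the brightest probe set was -0.58 to 0.15.

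Of the 15 member probe sets with a mean signal of 16 or more, 7 had their lowest value on knockout replicate 3. They were those of H2-Ob, Cd74, H2-DMa and H2-DMb2, all with negative differences. The matching share over all probe sets was not counted, so the 7 cannot be called particular to the members. Knockout replicate 3 also had the lowest median signal (16.5) and the largest share of probe sets under 16 (49.5%). Without it the differences of H2-Ob, at -2.72, and of the brighter H2-DMa probe set, at -0.74, stayed negative, as did that of Cd74 at -0.66. The brightest H2-DMb2 probe set, at -1.27 on all arrays, was at -0.80 without it and at -1.82 without knockout replicate 2.

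Genes that act beside class II were then followed, each by its probe set of highest mean log2 signal. Of 18193 genes read in this way 0.989% were called, 0.638% as lower and 0.352% as higher in knockouts, and their median difference was -0.05. Called or not, 10509 of them were lower and 7684 higher in knockouts. The 3 arrays of one group lay apart from those of the other for 23.4% of genes. The lists were drawn up by function, with earlier results of these data known.

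Of 12 genes for antigen processing and class II turnover, 0 passed in either direction and 3 had an unadjusted p under 0.05 (18.1% of all genes did), with a list median of -0.03. The lowest were proteases. Ctss, cathepsin S, which makes the last cuts in CD74, read 349.9, 333.6 and 95 in knockouts and 1037.1, 1145.2 and 1051.5 in controls. The groups were apart, and the difference was -2.17 (adjusted p = 0.114). It passed under 3 of 17 alternative settings. Ctsh, cathepsin H, read 8.6, 29.9 and 0.9 in knockouts and 78.5, 266.6 and 54.7 in controls, also apart, at -2.21 (adjusted p = 0.176). The asparagine endopeptidase gene Lgmn was dim in both groups, at 7.9 or less in knockouts and 22.8 or less in controls, with a difference of -0.67. The thiol reductase gene Ifi30, at 0.02, the lysosomal protease genes Ctsl, at 0.12, and Ctsd, at -0.01, and the CD74-remnant protease gene Sppl2a, at -0.06, had differences close to 0. Another Ctsl probe set was at -0.45. Ctsb was at -0.45, with its other probe sets at -2.12 to -0.16, and Cst3 was at -0.38, both with overlapping groups. Ctsz was at 0.03, with its other probe sets at -0.55 and -0.41. Of the 12 genes 7 were lower and 5 higher. March8, a ubiquitin ligase that removes class II from the surface, was at 0.54 (adjusted p = 0.376).

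Of the factors that bind class II promoters 4 were lower and 3 higher, and 0 of the 7 measured passed (3 with an unadjusted p under 0.05). The list median was -0.03. Rfxap, a subunit of the RFX complex, read 191.0, 248.4 and 236.2 in knockouts and 152.4, 141.4 and 119.1 in controls, a difference of 0.65 (adjusted p = 0.139). Every knockout array was above every control array, and the second probe set of Rfxap was at 0.85. Nfyc, a subunit of the Y box factor NF-Y, was also higher on every knockout array, at 0.47 (adjusted p = 0.235). Creb1, whose protein binds next to RFX, read 672.2, 624.8 and 664.1 in knockouts and 820.2, 1031.7 and 1029.6 in controls, at -0.54 (adjusted p = 0.155), with its other probe sets at -0.47 to -0.01. The other RFX subunit genes Rfx5, at -0.24, and Rfxank, at -0.03, had overlapping groups.

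Among 11 genes upstream of Ciita, 1 fell, 0 rose and 10 did not pass, with 4 at an unadjusted p under 0.05 and a list median of -0.45. Irf8, a transcription factor of monocytes, dendritic cells and B cells, was the one that fell. It read 22.0, 36.5 and 12.3 in knockouts and 800.7, 388.3 and 783.3 in controls (log2 difference -4.06; SE 0.36; limma adjusted p = 0.0293). The call was lost whichever array was left out (adjusted p = 0.0609 to 0.104). Spi1, which encodes the myeloid and B cell factor PU.1, read 196.4, 243.1 and 133.7 in knockouts and 365.9, 350.6 and 291.9 in controls. Its groups were apart at -0.80 (adjusted p = 0.188). Irf2 was lower on every knockout array, at -0.70 (adjusted p = 0.215). The interferon receptor kinase gene Jak2 was at 0.62 (adjusted p = 0.272), and Irf1, through which interferon acts on Ciita, was at -0.52 with overlapping groups (adjusted p = 0.435).

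CD74 also serves as the receptor of the cytokine MIF, together with CD44 and the chemokine receptors CXCR2 and CXCR4. Of these 5 genes, counting the MIF homologue Ddt, 0 passed, 2 had an unadjusted p under 0.05, and the list median was -0.29. Cxcr4 read 1816.3, 1886.0 and 1288.0 in knockouts and 2664.2, 2940.7 and 4055.1 in controls, apart at -0.94 (adjusted p = 0.141). Cxcr2 was likewise apart, at -1.22 (adjusted p = 0.150). Mif itself was at 0.03.

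Of 8 genes for co-stimulation of T cells, 0 passed and 1 had an unadjusted p under 0.05, with a list median of -0.13. The ligands Cd80, at 12.3 or less, and Cd83, at 10.1 or less on every array, were dim. Cd86 stayed at 26 or less. Tnfsf4, the OX40 ligand gene, read 35.9, 64 and 54.7 in knockouts and 32.3, 29.4 and 28 in controls, apart at 0.54 (adjusted p = 0.254).

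The MHC class I pathway, part of which is encoded between the DM and DO genes, had differences on both sides of 0, 6 lower and 10 higher. Of these 16 genes 0 passed, 2 had an unadjusted p under 0.05, and the list median was 0.09. The class I heavy chain genes H2-K1, at -0.03, and H2-D1, at 0.04, and their light chain gene B2m, at -0.17, had overlapping groups. The peptide transporter genes Tap1, at 0.26, and Tap2, at -0.04, and the immunoproteasome genes Psmb8, at -0.13, and Psmb9, at 0.12, which lie between H2-DMb1 and H2-Ob, did not pass either. The lowest adjusted p in the list were those of the trimming peptidase gene Erap1 (0.58; adjusted p = 0.210) and of the immunoproteasome gene Psmb10 (0.60; adjusted p = 0.223), both higher on every knockout array. The non-classical heavy chain gene H2-M3 had the highest difference, 1.17, with overlapping groups (adjusted p = 0.447). Nlrc5, the class I counterpart of Ciita, was at 0.50 (adjusted p = 0.417).

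**Figure D3:**
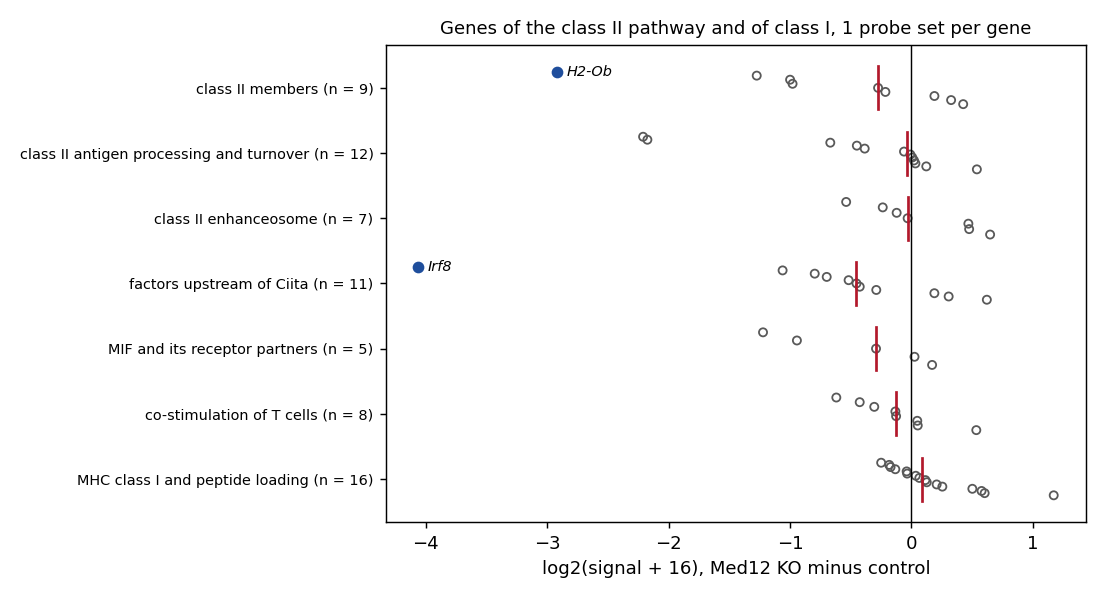
Difference of log2(signal + 16), Med12 KO minus control, for each gene (1 probe set per gene) of the class II members and of 6 related lists; filled blue points passed the threshold and red bars are list medians. H2-Ob at -2.92 and Irf8 at -4.06 were the genes called, and the class I list has a median of 0.09 with H2-M3 at 1.17.

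Markers of other cell types that carry class II were also read. Of the 29 genes in the monocyte and macrophage, dendritic and B cell lists 4 fell, as did 0.638% of all genes. The sort was for cells without lineage markers and with c-Kit and Sca1, and whether mature cells of these types remained was not tested. Summed over 8 monocyte and macrophage genes, of which 8 were lower and 3 fell, signal was 394 to 710 in knockouts and 2146 to 2836 in controls. The 3 were Csf1r (-4.61), Ccr2 (-4.02) and the dim C1qa (-1.01), while Lyz2, at -1.21, did not pass (adjusted p = 0.114). The 6 plasmacytoid dendritic cell genes, all 6 lower and 0 called, summed to 528 to 859 in knockouts and 1304 to 1488 in controls. Tcf4, at -1.14 (adjusted p = 0.128), and Ccr9, at -1.66 (adjusted p = 0.0761), had the smallest p. The other probe sets of Tcf4 ranged from -1.31 to -0.08 and those of Ccr9 from -1.57 to 0.43, and Tcf4 alone made up most of the sum on every control array. The 6 conventional dendritic cell genes, 4 lower and 1 called, summed to 45.1 to 63.7 in knockouts and 110.5 to 152.5 in controls. That call was Ccr7 (-1.72), and 3 of the 6, Xcr1, Cd209a and Batf3, were under 16 on every array. The 9 B cell genes, 8 lower and 0 called, summed to 153 to 430 in knockouts and 422 to 879 in controls, which overlapped. Cd79b alone read 311.4 on knockout replicate 2, most of the highest knockout sum. Ebf1 read 8.2, 17.8 and 6.8 in knockouts and 24.6, 29.5 and 21.5 in controls, apart at -0.63 (adjusted p = 0.202). Cd79a read 15.8, 11 and 1.1 in knockouts and 19.8, 101.9 and 56.5 in controls, also apart (-1.46; adjusted p = 0.226). Blk, at 29.5 or less on every array, was at -0.70 (adjusted p = 0.315). The B cell antigen gene Ms4a1 was at 8.6 or less throughout. The 4 T cell genes, 0 called, summed to 33.1 to 56.6 in knockouts and 46.4 to 83.6 in controls. The part of these cells in the lower H2-Ob, H2-DMa, H2-DMb2 and Cd74 signals was not tested.

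Early lymphoid genes had the lowest median difference of the marker lists, at -3.85. That list was drawn up with earlier results of these data known, so its rank is no test. All 7 genes were lower on every knockout array, and Dntt, Il7r, Rag2, Satb1 and Lax1 fell. Their sum was 115 to 234 in knockouts and 3363 to 4206 in controls. Of 5 erythroid genes, Gata1 (2.03), Klf1 (2.03), Epor (2.01) and Car1 (1.76) rose. The 1 probe set read for the haemoglobin gene Hba-a1 was at 2.5 or less on every array and gave no usable level. Probe sets shared with other genes were not read for these lists. Of 6 genes of the sort gate and of stem cells, 6 were lower and 0 passed, with Kit at 514.8 to 617.5 in knockouts and 805.2 to 1425.4 in controls. Cd34 was at 447.5 to 1077.4 in knockouts and 2029.4 to 2278.0 in controls. Among the 15 called genes named here, H2-Ob and Irf8 included, 13 lost their call whichever array was left out. Dntt and Ccr2 each kept it without 1 array.

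**Figure D4:**
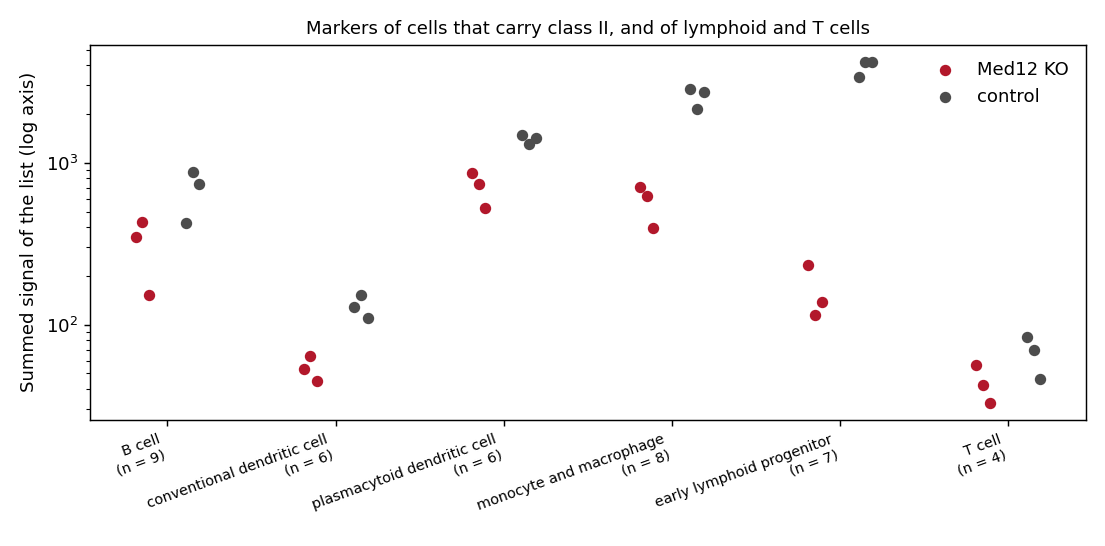
Summed signal (log axis) of 6 marker lists on each Med12 KO array (red, left) and control array (grey, right), with the number of genes measured per list. Knockout sums lie below control sums for the dendritic, monocyte and macrophage and early lymphoid lists, and overlap with them for the B cell and T cell lists.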

How the data were processed

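Per the labels' protocols, 5 ng of RNA went into an Ovation amplification and the cDNA was tagged with biotin. The authors deposited 1 linear signal intensity per probe set and array. The submitters' processing notes name RMA, which gives log2 values without zeros, whereas these values include 0 and have a mean of 150 on every array after 2% is left out at each end. The method behind them is not given in the sources used here.

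Of 45101 probe sets, 64 controls were left out. Values were taken as log2(signal + 16), and Med12 KO was set against control in limma 3.58.1 (R 4.3.3; functions lmFit and eBayes), fitted across 45037 probe sets on 6 arrays (two-sided, Benjamini-Hochberg, threshold 0.05, with 4 residual and 1.96 prior degrees of freedom). Intervals of 95% use the moderated SE. Gene names come from the platform annotation of 2016, in which 34945 probe sets have 1 symbol, 932 several and 9160 none. Of 124 list entries outside the members 113 matched, 3 of them through an older symbol, and the rest were not analysed here. The rule for named genes took all members, Med12, every list gene past the threshold, up to 4 others per list by unadjusted p, and the 5 genes nearest to Cd74 and to H2-Aa. Further list genes, such as Ctsd, Ifi30, Rfxank, Mif, Cd80, H2-K1, Tap2 and Ms4a1, fall outside it, and their values had been seen when they were picked. The members, lists and offset were chosen with earlier results of these data known. The fit was tested on simulated data with known differences.

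Alternatives were median centring, quantile and cyclic loess normalization, other offsets, a floor, filters on dim probe sets, array weights, a robust trended prior, a replicate block, a looser threshold, a plain equal-variance test and leaving out each array.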

Additional observations from a re-analysis of the deposited data

How the results depend on the processing

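In all 343 probe sets were called, against 693 after median centring, 42 with an offset of 1, 84 with a floor at 16, 715 without the dimmest 25% and 756 without the dimmer 50% of probe sets, 1159 at an adjusted p under 0.10, and 0 to 10 when an array was left out. With 0 calls, limma still gave 6219 probe sets an unadjusted p under 0.05 without knockout replicate 1 and 5340 without knockout replicate 3. Over all probe sets, replicate numbers did not mark shared deviations (same-number correlations of 0.0019 to 0.019). A replicate block left 0 calls, with 6752 probe sets at an unadjusted p under 0.05. Single members differed in this. The SE of the H2-DMb2 probe sets was 0.15 to 0.23 with the block and 0.59 to 0.72 without it, and that of H2-Eb1 was 0.80 and 0.68. The 1 member call, H2-Ob, became 0 with that block (adjusted p = 0.151), with an offset of 1 (0.0588), with a floor at 16 (0.112), in the plain equal-variance test, and in the 6 fits that left out an array (0 to 0). The cause of these changes was not tested.

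The median difference of the members was 0.11 after median centring and -0.45 with an offset of 1, and lay between -0.32 and -0.07 when an array was left out. Relative to all probe sets it was -0.09, and 0.014 without knockout replicate 2. Differences near 0 turned sign. H2-Aa's probe set at -0.0019 gave 0.27 with arrays centred on medians, 0.091 with quantile and 0.031 with loess normalization, 0.040 with an offset of 64 and 0.055 with array weights, and between -0.61 and 0.52 when an array was left out. H2-Ab1's probe set at -0.04 gave 0.23, 0.10, 0.055 and 0.026 under median centring, quantile, loess and array weights, and between -0.42 and 0.22 when an array was left out. Its probe set at 0.01 gave -0.0076 with an offset of 64 and between -0.30 and 0.25 when an array was left out. The brightest H2-Aa probe set ranged from -0.084 to 0.39 and H2-Eb1 from -0.0085 to 1.10 when an array was left out. After median centring the Ciita probe sets were at 0.21, 0.11 and 0.060, and a shared DM beta chain probe set at 0.076. H2-Ob, H2-DMa, H2-DMb2 and Cd74 kept a negative difference under all 17 settings. H2-Oa kept the sign only narrowly, at -0.00012 after median centring. The number of arrays and signals near the floor limit what could be detected.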
